A study of Mus musculus with 18 samples.

Results

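Genes of the neuromuscular junction and of denervation, 10 of the 43430 genes in the count table, were followed across myofiber RNA from mouse quadriceps. They were taken from a list by symbol, after Ensembl gene identifiers had been mapped to mouse symbols, by a rule that used no measured value. The list itself was chosen with earlier results of these data known. They comprised 5 subunits of the muscle acetylcholine receptor (Chrna1, Chrnb1, Chrnd, Chrne and Chrng), the receptor-clustering genes Musk and Rapsn, and Runx1, Ncam1 and Gadd45a, which are known to rise in muscle that has lost its nerve. All mice were C57BL/6 by the labels (C57BL/6J in the study's methods), began treatment at 10 weeks of age and were injected intraperitoneally for 4 weeks. Vehicle mice received no prednisone, daily mice received 1 mg/kg of this synthetic glucocorticoid every day, and weekly mice received 1 mg/kg once a week with vehicle on the other days, the last dose falling 2 days before tissue collection. Each treatment was given to males and to females, and each of these 6 groups held 3 libraries, 18 in all. The fibers were retained on a strainer after collagenase digestion of the right quadriceps, so that cells attached to them could come along.

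The 18 libraries held 10506661 to 14686654 counts, and mitochondrial genes took 11.7 to 36.4% of them. All 8 markers of fast myofibers were present in every library, with summed levels of 117974 to 209683 CPM, counts scaled to a common library total. Markers of Schwann cells, satellite cells, myeloid cells, endothelium, fibroblasts, adipocytes and red blood cells were also detected in every group, and no marker on these lists was at 0 throughout a group. Adipocyte markers moved most with treatment. With daily prednisone over both sexes 6 of 7 rose (edgeR adjusted p under 0.05), where 15% of all tested genes passed, with a median log2 fold change of 2.67. With weekly prednisone the median of these markers was 3.01 over both sexes. There edgeR called 0 of the 7, and 0% of all tested genes. DESeq2, run as an alternative, called 6 of the 7 there, 6 in weekly females and 0 in weekly males. The share of all genes that DESeq2 called is not given. In these bulk samples, fewer cells or endplates and less RNA in each cannot be told apart.

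A muscle fiber carries a small specialised patch, the endplate, where the motor nerve releases acetylcholine onto clustered receptors. Nerve-derived agrin acts through Lrp4 on the kinase MuSK, rapsyn then anchors the receptors, and the few nuclei under the synapse transcribe the receptor genes, while electrical activity keeps these genes low along the rest of the fiber. When the nerve is lost, that repression is lifted, and the alpha, beta, delta and fetal gamma subunits are made along the whole fiber. Genes such as Runx1, Ncam1 and Gadd45a rise with them.

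The start regions of the genes were examined for short motifs linked to this control. E-boxes (CANNTG) are bound by myogenic factors of the MyoD family, and the letters CCGGAA are the core of the N-box, bound by Ets-family factors such as GABP. Of the 10 genes, 7 matched by symbol an entry in a RefSeq table of promoters (build GRCm38.p6, 250 bases before to 50 bases after the start), and Chrnd, Rapsn and Ncam1 did not. Stretches of 3 are shown for the adult receptor subunits whose levels varied together and for Musk, the gene edgeR called higher with daily prednisone. Each runs 5′ to 3′ on the strand of the gene from 200 to 31 bases before the start, and capitals mark E-boxes and the N-box core.
Chrna1 (chr2:73580369-73580538, minus strand): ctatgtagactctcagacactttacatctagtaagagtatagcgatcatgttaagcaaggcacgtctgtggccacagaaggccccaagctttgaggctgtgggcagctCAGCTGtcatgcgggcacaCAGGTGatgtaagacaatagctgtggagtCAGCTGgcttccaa
Chrne (chr11:70619225-70619394, minus strand): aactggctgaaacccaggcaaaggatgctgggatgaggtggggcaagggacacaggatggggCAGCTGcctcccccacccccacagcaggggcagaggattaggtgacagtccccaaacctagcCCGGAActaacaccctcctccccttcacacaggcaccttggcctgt
Musk (chr4:58285762-58285931, plus strand): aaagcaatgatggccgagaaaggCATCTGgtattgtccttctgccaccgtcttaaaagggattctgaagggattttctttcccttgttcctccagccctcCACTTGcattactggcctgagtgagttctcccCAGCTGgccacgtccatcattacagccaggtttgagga
Chrna1 held 3 E-boxes, 92, 73 and 44 bases before its start, and Musk held 3, at 177, 100 and 68 bases. Chrne held 1 E-box at 138 bases and 1 N-box core at 76 bases. Searched on both strands, at least 1 E-box was present in 72.3% and at least 3 were present in 17.6% of 32851 promoters of this length, and an N-box core in 14.9%. Chrnb1 and Chrng also held 3 E-boxes each, Gadd45a held 1 E-box and 1 N-box core, and the pair of Runx1 starts held 3 E-boxes and 1 N-box core respectively. The glucocorticoid receptor half-site AGAACA was found in none of the 8 windows of these genes, and in 19% of all promoters. A match of letters is a description of the sequence and was not tested as a binding site.

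Expressed per kb of exon, the 10 genes spanned a wide range. Gadd45a was the highest at 17.6 ± 5.94 CPM per kb (SD, n = 18), followed by Rapsn at 12.9 ± 2.26 and Chrnb1 at 12.8 ± 2.29. Rapsn was above Chrnb1 in only 6 of 18 libraries, so this neighboring pair did not separate beyond its spread. Chrne stood below them at 6.43 ± 2.06 CPM per kb and Chrna1 at 2.62 ± 0.601, and each of the steps from Chrnb1 to Chrne and from Chrne to Chrna1 held in all 18 libraries. Musk followed at 1.22 ± 0.761, Ncam1 at 0.63 ± 0.151, Chrnd at 0.515 ± 0.214 and Runx1 at 0.338 ± 0.101 CPM per kb. Musk, Ncam1 and Chrnd were each above the next gene in 14 of 18 libraries, Chrna1 was above Musk in 16 and Gadd45a above Rapsn in 13. Chrng was last at 0.0137 ± 0.0187 CPM per kb, below Runx1 in all 18.

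**Figure D1:**
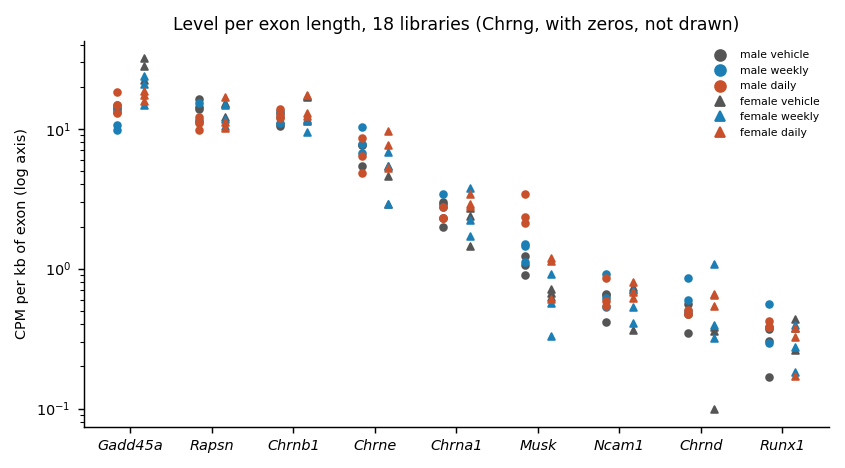
Level of 9 genes in CPM per kb of exon (log axis), 1 point per library with males as circles and females as triangles, colored by treatment. Rapsn and Chrnb1 overlap at about the same height, Musk spreads more widely than its neighbors with the male daily libraries on top, and Chrng is not drawn because it was 0 in 10 libraries.

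The receptor subunits came first. In the adult receptor the epsilon subunit replaces the fetal gamma subunit, and the 2 genes were read against each other. Chrng (ENSMUSG00000026253, chromosome 1, 87204657 to 87212694) had 12 counts over all 18 libraries, at most 2 in any library and 0 in 10 of them. Chrne had 2457 counts, so that Chrng made up 0.486% of their sum (95% exact binomial interval 0.251 to 0.847%, counting error only). By group the share ran from 0.177% in females on daily prednisone to 1.24% in female vehicle mice, with intervals that overlapped between all groups. Chrng did not pass the filter on low counts and was not tested, which left 9 of the 10 genes for the fits.

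Chrne (ENSMUSG00000014609, chromosome 11, 70614883 to 70619216) measured 13, 13 and 9.15 CPM in male vehicle libraries, 17.5, 13.1 and 11.3 CPM in weekly males and 14.5, 8.10 and 10.8 CPM in daily males. The 3 male groups overlapped. In females it measured 7.70, 4.88 and 9.22 CPM with vehicle, 11.4, 4.88 and 9.09 CPM with weekly and 16.3, 12.9 and 8.88 CPM with daily prednisone. Daily females 1 and 2 lay above every vehicle female and the third lay among them. The log2 fold change of daily females was 0.79 ± 0.32 (standard error, 95% interval 0.11 to 1.47, edgeR adjusted p = 0.214), against -0.08 ± 0.32 in daily males (adjusted p = 0.908). The fitted sex difference of this response was 0.87 (95% interval -0.09 to 1.82, edgeR adjusted p = 0.889) and was not called.

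Chrna1, the acetylcholine-binding alpha subunit (ENSMUSG00000027107, chromosome 2, 73563215 to 73580338), measured 11.9, 6.40 and 10.5 CPM in female vehicle libraries and 15, 12.8 and 12.3 CPM in daily females. The daily females were all above the vehicle females, by a narrow margin. Those groups were also apart in total counts (12961619 to 14686654 in daily, 10506661 to 12189113 in vehicle females) and in the mitochondrial share (11.7 to 18.3% and 21.1 to 26.3%), and the part of either in the receptor values of females was not tested. The fitted change was 0.47 ± 0.27 (95% interval -0.10 to 1.04, adjusted p = 0.391). In males the vehicle libraries measured 12.8, 13.2 and 8.74 CPM and the daily libraries 12, 10 and 10.2 CPM, which overlapped, with a change of -0.11 ± 0.27 (adjusted p = 0.842). Weekly libraries spanned 10.2 to 15 CPM in males and 7.46 to 16.5 CPM in females.

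Chrnd, the delta subunit, was scarce, with 3 to 53 counts per library. It measured 1.18, 0.326 and 1.25 CPM in female vehicle libraries, 3.55, 1.05 and 1.31 CPM in weekly females and 1.76, 2.14 and 2.17 CPM in daily females. Daily females did not overlap vehicle females, while weekly females did. The log2 fold changes were 1.10 ± 0.46 with daily (adjusted p = 0.221) and 1.08 ± 0.46 with weekly prednisone (adjusted p = 0.548), and neither passed. The weekly value fell to 0.33 without female weekly replicate 1, the library at 3.55 CPM, and to 0.70 without female vehicle replicate 2, and the daily value fell to 0.73 without that same vehicle library. In males the corresponding values were 0.07 ± 0.44 and 0.48 ± 0.44.

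Chrnb1, the beta subunit, was the most abundant subunit and the steadiest. Its 18 libraries ran from 23.9 to 44.3 CPM with a median of 31.0 CPM. Female vehicle libraries measured 43.1, 43.3 and 28.9 CPM and weekly females 23.9, 29.8 and 29.4 CPM, which overlapped at 1 library. The fitted change was -0.47 ± 0.17 (95% interval -0.83 to -0.12, adjusted p = 0.42). It was -0.09 ± 0.17 in daily females, 0.20 ± 0.17 in daily males and 0.15 ± 0.17 in weekly males.

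**Figure D2:**
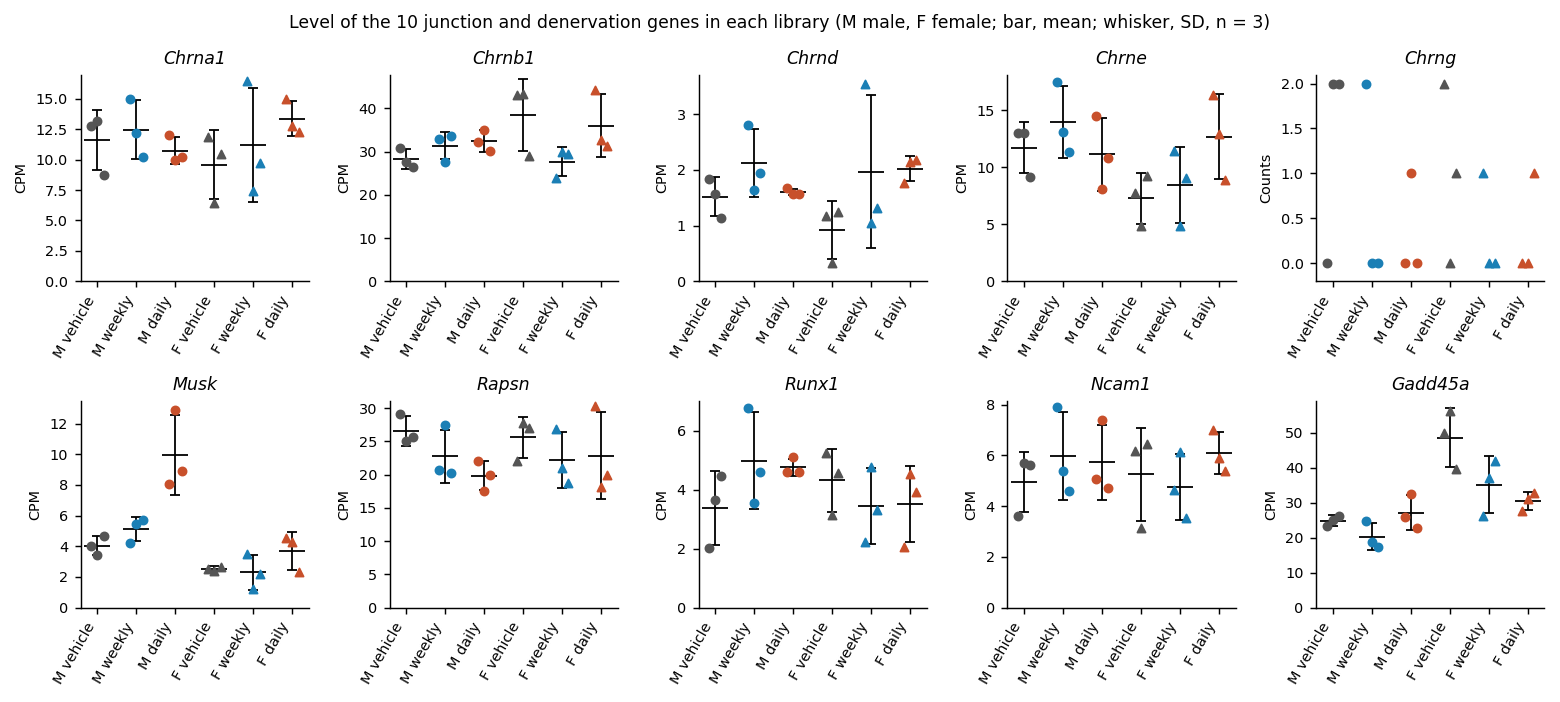
Each of the 10 genes in each of the 18 libraries, by group on the horizontal axis and in CPM on the vertical axis (raw counts for Chrng), with the group mean and SD (n = 3) as a bar and whiskers for all but Chrng. Musk in the 3 male daily libraries (8.06 to 12.9 CPM) stands above all other libraries, and Gadd45a is higher in female vehicle libraries (39.5 to 56.3 CPM) than in male ones (23.2 to 26.3 CPM).

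Across libraries, 3 of the subunits rose and fell with each other and 1 did not. Over the 18 libraries, log2 CPM of Chrna1 correlated with that of Chrnd at a Pearson r of 0.86 (Spearman rho 0.78) and with that of Chrne at 0.83 (rho 0.76), and Chrnd with Chrne at 0.73 (rho 0.62). After the mean of each group was removed these values were 0.88, 0.86 and 0.68, so the relation was present among libraries of the same group. Chrna1 and Chrne gave 0.88 within the 9 males and 0.89 within the 9 females. Without the 2 libraries farthest from the median of Chrna1, r was 0.75 with Chrnd and 0.64 with Chrne. Chrnb1 had an r of -0.16 with Chrna1, -0.16 with Chrne and -0.43 with Chrnd. The points share library, depth and the part of the muscle that was caught, and the correlations are given as a description.

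The genes with the most similar pattern were looked up for Chrna1 and for Chrne. Among all 13596 tested genes, the 3 whose log2 CPM correlated best with Chrna1 were Chrnd (0.86), Chrne (0.83) and Colq (0.83). For Chrne they were Colq (0.89), Ache (0.86) and Chrna1 (0.83). Ache encodes acetylcholinesterase, the enzyme that ends each transmission, and Colq encodes the collagen tail that anchors it at the synapse. Colq was lowest in female weekly replicate 2 (4.02 CPM) and female vehicle replicate 2 (4.23 CPM), the libraries in which Chrne was also lowest at 4.88 CPM each. It was highest in male weekly replicate 1 (12.4 CPM), where Chrne was also highest at 17.5 CPM. These libraries differed in other ways as well. Female weekly replicate 2 had the largest mitochondrial share (36.4%) and female vehicle replicate 2 the lowest total (10506661 counts), and over the 18 libraries Chrna1 had an r of 0.47 with total counts and of -0.53 with the mitochondrial share. The part of depth and of the mitochondrial share in the joint variation was not tested.

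**Figure D3:**
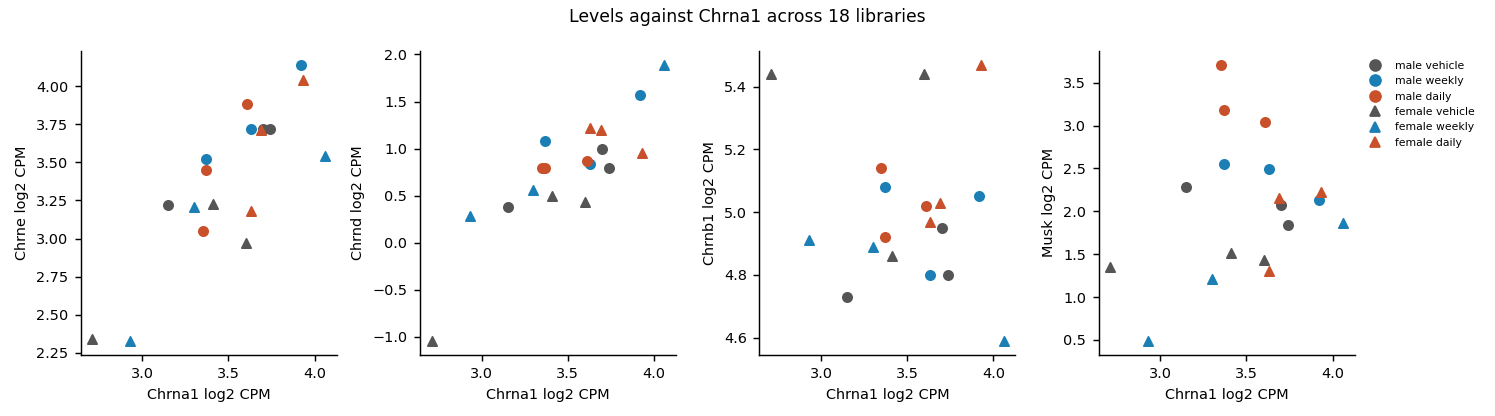
Log2 CPM of Chrne, Chrnd, Chrnb1 and Musk (vertical axes) against log2 CPM of Chrna1 (horizontal axes), 1 point per library, with males as circles, females as triangles and color for treatment. Chrne and Chrnd climb with Chrna1 (r of 0.83 and 0.86), Chrnb1 does not (r of -0.16), and the 3 male daily libraries lie above the rest for Musk.

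Musk was the only tested gene of the list that edgeR called against vehicle. Musk (ENSMUSG00000057280, chromosome 4, 58285960 to 58374303) encodes the receptor tyrosine kinase that starts receptor clustering. In males it measured 4.03, 3.43 and 4.68 CPM with vehicle, 4.22, 5.47 and 5.71 CPM with weekly and 8.06, 12.9 and 8.90 CPM with daily prednisone. All daily males were above all vehicle and all weekly males. The counts behind these values were 126 in vehicle and 413 in daily males, each over 3 libraries. Daily prednisone raised Musk 2.47-fold in males, a log2 fold change of 1.30 ± 0.31 (95% interval 0.66 to 1.95, edgeR adjusted p = 0.0212).

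All vehicle females (2.39 to 2.68 CPM) were below all vehicle males (3.43 to 4.68 CPM) in Musk. The difference was not called (-0.67 ± 0.33, 95% interval -1.37 to 0.03, edgeR adjusted p = 0.501). In females it measured 2.54, 2.39 and 2.68 CPM with vehicle, 3.48, 1.24 and 2.16 CPM with weekly and 4.53, 4.27 and 2.29 CPM with daily prednisone. Daily females 1 and 2 lay above all vehicle females and the third lay below them. The change in daily females was 0.53 ± 0.33 (95% interval -0.15 to 1.22, adjusted p = 0.417). Over both sexes daily prednisone raised Musk by 0.92 ± 0.22 (edgeR adjusted p = 0.0118). The fitted sex difference of this response was -0.77 (females minus males, 95% interval -1.71 to 0.17, adjusted p = 0.889) and was not called. Weekly prednisone left Musk at 0.34 ± 0.31 against vehicle in males and at -0.12 ± 0.34 in females, with adjusted p of 0.866 and 0.998. Against weekly prednisone, daily dosing gave 0.96 ± 0.30 in males and 0.65 ± 0.32 in females, with adjusted p of 0.19 and 0.304.

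The size of the rise in males held without any single library, with a log2 fold change between 1.06 and 1.44. It kept its call without male daily replicate 1 (adjusted p = 0.0372) and lost it without any one of male daily replicates 2 and 3 and male vehicle replicates 1, 2 and 3, with adjusted p between 0.0511 and 0.102. Over both sexes the rise kept its call whichever of the 12 libraries was removed, with adjusted p between 0.00765 and 0.0334.

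With the treatments pooled, the correlation of Musk with Chrna1 and with Chrne was negative within males and positive within females. Its r with Chrna1 was -0.49 within the 9 males and 0.73 within the 9 females (0.24 over all 18). With Chrne it was -0.54 within males and 0.86 within females (0.49 over all 18). These values include the differences between groups. After the mean of each group was removed, r over all 18 was 0.36 with Chrna1 and 0.38 with Chrne. Musk CPM divided by Chrna1 CPM was 0.259 to 0.536 in vehicle males, 0.281 to 0.562 in weekly males and 0.671 to 1.29 in daily males. The ratio uses the same Musk values that set the daily males apart, so it is no separate evidence. In females the same ratio was 0.213 to 0.373 with vehicle and 0.187 to 0.335 with daily prednisone, which overlapped. The genes with the pattern most like Musk, looked up after its values were seen, were Jak1 (r = 0.90), a cytokine receptor kinase, Atp11a (0.89), a phospholipid flippase, and Ascc3 (0.89), a helicase. Markers of other cells also moved in daily males. Of 8 myeloid markers 1 rose (Cd68, log2 fold change 1.72, adjusted p = 0.00785), with sums of 48.1 to 56.2 CPM with vehicle and 48.7 to 62.3 CPM with daily prednisone. Of 8 fast fiber markers edgeR called 1 lower (Pvalb) and DESeq2 called 3, and the median log2 fold change of the 8 was -0.51. Over both sexes edgeR called 3 of the 8 lower with daily prednisone (Pvalb, Mylpf and Tnnt3), where it called 15% of all genes. Summed adipocyte markers were 308 to 567 CPM in vehicle males and 638 to 1422 CPM in daily males, without overlap. Their median log2 fold change was 2.60. Of these 7 markers edgeR called 0, where it called 6.47% of all genes, and DESeq2 called 5. The part of all these markers in the Musk result was not tested.

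Rapsn, which encodes the scaffold rapsyn under the receptor clusters, leaned the other way without passing. Male vehicle libraries measured 29.1, 25.0 and 25.6 CPM and daily males 22.0, 17.6 and 19.9 CPM. All daily males were below all vehicle males. The change was -0.42 ± 0.19 (95% interval -0.83 to -0.02, adjusted p = 0.203). Female vehicle libraries measured 22.0, 27.8 and 27.0 CPM and daily females 30.4, 18.2 and 20 CPM, which overlapped, with a change of -0.16 ± 0.19 (adjusted p = 0.698). Over both sexes the change was -0.29 ± 0.14 (adjusted p = 0.162), and without female daily replicate 1, the library at 30.4 CPM, it was -0.42 and passed (adjusted p = 0.0238). Weekly prednisone gave -0.23 ± 0.19 in males and -0.20 ± 0.19 in females.

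The denervation genes Runx1 and Ncam1 gave no call in any comparison. Runx1, a transcription factor known to rise sharply in denervated fibers and also present in blood cells, measured 2.02, 3.63 and 4.47 CPM in vehicle males and 4.58, 5.09 and 4.60 CPM in daily males. The daily males were just above the vehicle males, with a change of 0.51 ± 0.35 (95% interval -0.24 to 1.26, adjusted p = 0.417). In females it measured 3.15 to 5.25 CPM with vehicle and 2.07 to 4.53 CPM with daily prednisone, a change of -0.30 ± 0.35 (adjusted p = 0.699). The weekly values were 0.57 ± 0.36 in males and -0.36 ± 0.35 in females.

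Runx1 was not grouped with the receptor genes across libraries. Its r was -0.25 with Chrna1, -0.14 with Chrne and -0.66 with Rapsn. The tested genes most like it were Asap2 (0.93), Nav1 (0.92) and Nedd9 (0.92), which act in the cytoskeleton and in cell adhesion. Of the other junction genes, Utrn, which encodes utrophin, came nearest at 0.92. Over the 18 libraries Runx1 had an r of 0.60 with the mitochondrial share, and the part of that share was not tested.

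Ncam1, an adhesion molecule that is restricted to the junction in innervated fibers and is also made by satellite cells and nerve, ran from 3.15 to 7.91 CPM with a median of 5.50 CPM. Every treated group overlapped its vehicle group. The changes were 0.22 ± 0.30 in daily males, 0.20 ± 0.30 in daily females, 0.26 ± 0.30 in weekly males and -0.16 ± 0.30 in weekly females. Summed satellite cell markers were 37.6 to 87.1 CPM over all libraries, and none of the 5 was called in any comparison with vehicle. Ncam1 correlated with Runx1 at 0.50.

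Gadd45a, a stress-induced gene that rises in denervated and wasting muscle, was the gene called different between female and male vehicle mice. It measured 49.9, 56.3 and 39.5 CPM in female vehicle libraries and 23.2, 24.9 and 26.3 CPM in male ones. The groups were far apart, with no overlap. Females were 1.96-fold higher, a log2 difference of 0.97 ± 0.19 (adjusted p = 0.0202). Removing replicate 1 or 2 of either vehicle group took the call away, with adjusted p of 0.0879 to 0.15 and a difference of 0.87 to 0.98. An RNA on the opposite strand, E230016M11Rik, covers 19.1% of the exon bases of Gadd45a, and whether reads were counted by strand is not given in the sources used here.

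With daily prednisone Gadd45a in females measured 27.6, 30.9 and 32.8 CPM, all below the vehicle females and all above the vehicle males. The change was -0.67 ± 0.19 (95% interval -1.07 to -0.28), with an edgeR adjusted p of 0.0892, and DESeq2, run as an alternative, called it (-0.68, adjusted p = 0.03). Weekly females measured 26.2, 37.1 and 42.0 CPM, overlapping vehicle, with a change of -0.47 ± 0.19 (adjusted p = 0.5). Daily males measured 25.9, 32.5 and 22.7 CPM, also overlapping vehicle, with a change of 0.13 ± 0.19 (adjusted p = 0.727). The fitted sex difference of the daily response was -0.80 (females minus males, 95% interval -1.36 to -0.24, edgeR adjusted p = 0.889) and was not called. In the same females 1 of 7 adipocyte markers (Lep) rose by edgeR, where it called 0.382% of all genes, and DESeq2 called 6 of the 7. The adipocyte sums were 649 to 734 CPM with vehicle and 1093 to 3140 CPM with daily prednisone. Of 5 red blood cell markers 1 fell by edgeR (Hbb-bt), and DESeq2 called 4. Over both sexes 4 of these 5 fell with daily prednisone by edgeR, where 15% of all genes were called. The part of these markers in the Gadd45a values was not tested.

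**Figure D4:**
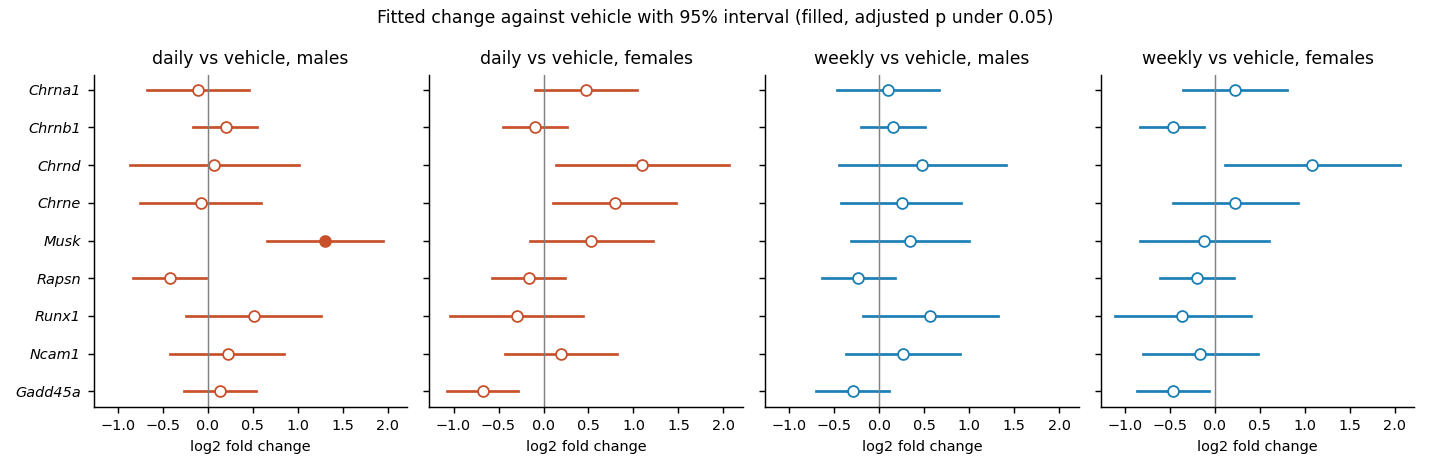
Fitted log2 fold change (points) with its 95% interval (lines) of the 9 tested genes in each treatment and sex against vehicle of that sex, with filled points for an adjusted p under 0.05. Musk in daily males is the 1 filled point, at 1.30.

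Counted over the 9 tested genes, 1 rose and 0 fell in daily males, where 6.47% of all tested genes were called. In daily females 0 were called by edgeR, 1 was called by DESeq2 (Gadd45a) and 3 had an unadjusted p under 0.05 (17.3% of all genes had), where edgeR called 0.382% of all genes. Over both sexes 1 rose with daily prednisone, where 15% of all genes were called. The median log2 fold change over these 9 genes was 0.13 in daily males and 0.20 in daily females, beside 0.05 and 0.01 over all tested genes. Treated and vehicle libraries did not overlap for 3 of the 9 in daily males (Musk, Runx1 and Rapsn) and 3 in daily females (Chrna1, Chrnd and Gadd45a), beside 33.4% and 23.1% of all genes. In weekly mice none of the 9 had groups apart, beside 16.7% of all genes in males and 8.07% in females.

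Weekly prednisone gave 0 calls among the 9 genes by edgeR and by DESeq2, in males, in females and over both sexes, where edgeR called 0% of all genes, and 0, 3 and 2 of the 9 had an unadjusted p under 0.05, as had 5.71%, 7.97% and 11% of all genes. Daily against weekly prednisone also gave 0 calls by edgeR in each sex and 0 by DESeq2, which gave an adjusted p for 3 of the 9 in males and 8 in females, with 2 of the 9 in males and 1 in females at an unadjusted p under 0.05 (13.5% and 17.7% of all genes) and 0% of all genes called by edgeR. The sex difference of the response gave 0 by both tools for each treatment, beside 0% of all genes by edgeR, with 1 gene each at an unadjusted p under 0.05 (4.69% and 2.63% of all genes), Gadd45a for daily and Chrnb1 for weekly prednisone. Between female and male vehicle mice, 1 of the 9 was called, where 0.765% of all genes were. The treated groups of each sex share their vehicle libraries, so the daily and weekly values are not independent of each other.

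The wider pathway was read from 24 other junction genes and 15 other denervation-responsive genes, of which 22 and 13 were tested. Nrg1, Erbb4, Dach2 and Gdf5 were too low. Of the junction genes 4 rose and 0 fell with daily prednisone over both sexes, where 15% of all genes were called, and 1 rose in daily males, where 6.47% were. In daily females edgeR called 0 of them, where it called 0.382% of all genes. There 4 of the 22 had an unadjusted p under 0.05, as had 17.3% of all genes. DESeq2 called 3 of the junction genes in daily females, and the share of all genes it called is not given. With weekly prednisone edgeR and DESeq2 called 0 in either sex. There 0 of the 22 had an unadjusted p under 0.05, beside 5.71% of all genes in males and 7.97% in females. The median log2 fold change of the 22 with daily prednisone over both sexes was 0.15, beside 0.02 over all tested genes. Of the denervation-responsive genes 2 rose and 0 fell over both sexes, beside the same 15% of all genes, and 1 rose in daily males, beside 6.47%, with a median over both sexes of 0.03. Of these 13, both tools called 0 in daily females and 0 with weekly prednisone. In daily females 2 had an unadjusted p under 0.05, beside 17.3% of all genes. In weekly mice 2 did in each sex, beside 5.71% of all genes in males and 7.97% in females.

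Gabpa, a subunit of the GABP factor that binds the N-box, measured 14.4, 17.2 and 18.5 CPM in vehicle males and 22.5, 23.2 and 31.9 CPM in daily males. All daily males were above all vehicle males, and the same held for daily females (24.7 to 26.6 CPM) over vehicle females (13.9 to 19.6 CPM). The log2 fold change was 0.63 in males (adjusted p = 0.0326) and 0.61 over both sexes (adjusted p = 0.00296). Exons of Atp5j on the opposite strand cover 6.98% of its exon bases. The call in males was lost in 5 of the 6 fits that left out 1 library, all but the one without male daily replicate 1. Over both sexes Scn4a, the muscle sodium channel gathered at the endplate, rose by 0.56 ± 0.12 (adjusted p = 0.00476), Etv5, an Ets factor of the synaptic nuclei, by 0.45 ± 0.13 (adjusted p = 0.0232), and Crk, an adaptor below MuSK, by 0.37 ± 0.07 (adjusted p = 0.00404). These 4 genes were the 4 with an unadjusted p under 0.05 in daily females, with log2 fold changes of 0.59 for Gabpa, 0.62 for Scn4a, 0.61 for Etv5 and 0.40 for Crk.

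Among the denervation-responsive genes, Fbxo30, a ubiquitin ligase subunit that promotes wasting after denervation, measured 9.65, 10 and 10.1 CPM in vehicle males and 19.5, 17.8 and 21.9 CPM in daily males. The groups were apart. The log2 fold change was 0.99 ± 0.19 in males (adjusted p = 0.011), no longer passing without male vehicle replicate 1, and 0.80 ± 0.14 over both sexes (adjusted p = 0.00184). Myh8, the perinatal myosin heavy chain, rose by 1.01 ± 0.26 over both sexes (adjusted p = 0.0146). Myh3, the embryonic myosin, had the largest estimate of the list at 1.26 and did not pass (adjusted p = 0.169). The other tested genes of this list, among them Myog, Myod1, Hdac4, Trim63 and Fbxo32, were not called by edgeR in any comparison with vehicle. By qPCR the study reported Trim63 and Fbxo32 as higher with daily prednisone. In these counts their log2 fold changes were 0.30 ± 0.52 and 0.03 ± 0.43 in daily males. In daily females they were -0.87 ± 0.53 and -0.82 ± 0.43. Vehicle females alone spanned 188 to 1420 CPM for Trim63 and 293 to 1312 CPM for Fbxo32.

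**Figure D5:**
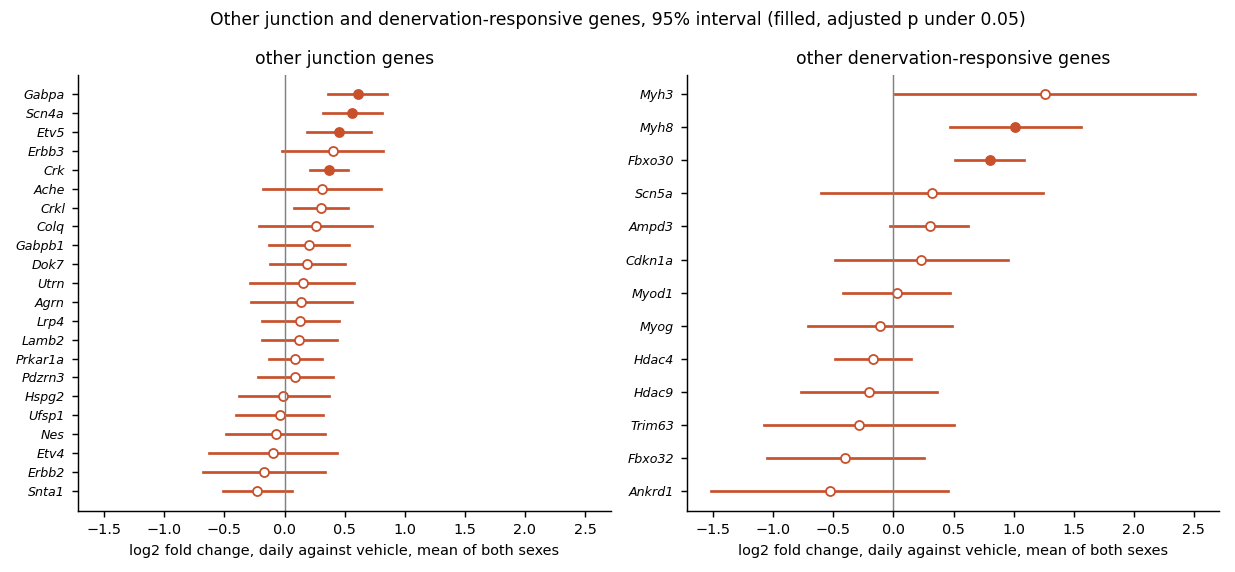
Log2 fold change of daily prednisone against vehicle over both sexes (points) with 95% intervals (lines) for the 22 tested other junction genes and the 13 tested other denervation-responsive genes, filled where the adjusted p was under 0.05. Gabpa, Scn4a, Etv5 and Crk are filled on the left, Myh8 and Fbxo30 on the right, and no gene that fell is filled.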

How the data were processed

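RNA from quadriceps myofibers was sequenced in 18 libraries, 3 in each of 6 groups. The authors deposited whole-number read counts per gene, not normalized. The submitters' processing notes name TopHat2 2.1.0, Bowtie2 2.2.6 and HTSeq, with mm10, the build the study states, and also mm9. The annotation release and the strand setting are not given in the sources used here. Genes sharing reads could be miscounted in either direction.

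Symbols and exon lengths came from GENCODE M21, and coordinates are on mm10. Counts were fitted as 6 group means over 18 libraries with edgeR 4.0.16 (robust quasi-likelihood test, TMM scaling) in R 4.3.3, after a filter with a minimum count of 10 that left 13596 genes. P-values were adjusted by Benjamini-Hochberg over these, and an adjusted p under 0.05 was called. The biological coefficient of variation was 0.224. CPM were computed on library sizes with TMM factors, and log2 CPM with a prior count of 2. The fit was tested on simulated data. Alternatives were DESeq2 1.42.0, its size factors within edgeR, no filter, the compared groups alone, a replicate block and leaving out each library. Shares of all genes called are those of edgeR, and none is given for DESeq2.

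The genes and lists were chosen with earlier results of these data known. Named from the other lists were genes called against vehicle and the 3 largest changes with daily prednisone over both sexes, and for Chrna1, Chrne and Runx1 the 3 best-correlated genes. The study's methods give 3 animals per group, and the labels give a replicate number only. Same-numbered libraries correlated, in their deviations from group means, at -0.318 to 0.501. All 3 pairs passed 0.1 only for daily and weekly females (0.501, 0.483 and 0.439), and these were also fitted with the number as a block. Intervals of shares cover counting error only. The values of the Schwann cell marker list are not reported here.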

Additional observations from a re-analysis of the deposited data

How the results depend on the processing

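Of 770 fold changes recomputed over 59 results, 728 kept their direction and side of the threshold, 9 lost a call, 2 gained one and 31 changed sign. The sign changes fell on 18 results, each at most 0.23 in size and none above its standard error, and all came from leaving out 1 library. In daily against vehicle, males, the log2 fold change ran over these fits Chrna1 from -0.25 to 0.014, Chrnd from -0.068 to 0.26, Chrne from -0.32 to 0.11, Ncam1 from -0.018 to 0.35 and Gadd45a from -0.027 to 0.24. In daily against vehicle, females, the log2 fold change ran over these fits Chrnb1 from -0.27 to 0.0037 and Ncam1 from -0.061 to 0.37. In daily against vehicle, mean of both sexes, the log2 fold change ran over these fits Chrnb1 from -0.035 to 0.11 and Runx1 from -0.02 to 0.25. In weekly against vehicle, males, the log2 fold change ran over these fits Chrna1 from -0.058 to 0.24. In weekly against vehicle, females, the log2 fold change ran over these fits Chrna1 from -0.17 to 0.43, Chrne from -0.054 to 0.47, Musk from -0.56 to 0.14 and Ncam1 from -0.43 to 0.014. In weekly against vehicle, mean of both sexes, the log2 fold change ran over these fits Chrna1 from -0.033 to 0.26, Musk from -0.11 to 0.24, Runx1 from -0.055 to 0.23 and Ncam1 from -0.082 to 0.14.

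The count of the 9 genes called ran from 0 to 1 in daily males, 1 to 2 over both sexes with daily prednisone and 0 to 1 between female and male vehicle mice when 1 library was left out. In daily males the other junction genes and the other denervation-responsive genes each ran from 0 to 1. DESeq2 called 1 of the 9 in daily females, and 3 other junction genes and 2 other denervation-responsive genes in daily males. The share of all genes that DESeq2 called is not given, so these counts have no background beside them. With the replicate block, Musk gave 1.28 in daily males (adjusted p = 0.032), and neither this pairing nor the one of daily and weekly females, chosen after seeing the data, changed a call among the 9 (0 in daily against weekly females). The causes of these shifts were not tested. With 3 libraries a group, genes of few counts such as Chrnd (3 to 53 per library) carried standard errors of 0.42 to 0.48 between 2 groups, and Chrng could not be fitted after the filter.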
